A study of Mus musculus with 4 samples.

Results

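Fc receptors and the tyrosine kinase signalling behind them were followed here through 9 genes, Fcgr1, Fcgr2b, Fcgr3, Fcgr4, Fcer1g, Syk, Plcg2, Inpp5d and Lyn, out of 54532 genes shared by the count tables. They were chosen by name as Fc gamma receptors and the proximal signalling used in phagocytosis, although earlier results of these data were known. All 9 were found and passed the filter on low counts. RNA came from primary microglia that had been grown from the cortex of male CD1 mouse pups in mixed glial cultures with GM-CSF, freed of the astrocyte layer by trypsin, and kept in serum-free medium with IL-34, TGFβ2, GM-CSF and cholesterol. Cultures received 1 µM EGCG (epigallocatechin gallate, a flavan-3-ol from green tea) or the DMSO solvent (Vehicle) for 24 h, and each group had 2 biological replicates. The 4 libraries held between 33805071 and 54970300 counts, of which the deepest was EGCG replicate 2.

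An Fc gamma receptor binds the constant part of IgG, so that a particle coated with antibody can be held and engulfed. The activating receptors signal through the ITAM, a tyrosine motif that in mice is carried by the common gamma chain. A Src family kinase phosphorylates the ITAM, Syk docks on it, and phospholipase C gamma and lipid kinases act downstream. The inhibitory receptor carries an ITIM instead, which recruits the lipid phosphatase SHIP1. In microglia the same kinases also serve receptors such as Trem2 that signal through the adaptor Tyrobp. On GRCm38, the receptor genes Fcgr2b, Fcgr4 (171018920 to 171029761) and Fcgr3 and the gamma chain gene Fcer1g (171229572 to 171234365) are neighbours on chromosome 1, where Inpp5d also lies (87620312 to 87720507). Fcgr1 is on chromosome 3 (96282909 to 96293969), Lyn on chromosome 4 (3678115 to 3813122), Plcg2 on chromosome 8 (117498291 to 117635142) and Syk on chromosome 13 (52583173 to 52648792).

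Among these receptors, Fcgr2b and Fcgr3 are close copies, and their shared sequence bears on how their counts can be read. Fcgr2b (chromosome 1, 170958617 to 170976547) and Fcgr3 (chromosome 1, 171051174 to 171064935) lie on the minus strand of GRCm38. Their longest coding transcripts, Fcgr2b-201 and Fcgr3-201, shared 7 identical runs of at least 20 bases, which came to 429 bases with a longest run of 129. No run of that length was shared between any other pair of the 4 Fcgr genes. The stretch of 265 bases below is coding sequence of exons 3 and 4 in both transcripts (chr1:170967980-170968103 and chr1:170966560-170966700 in Fcgr2b, chr1:171057691-171057814 and chr1:171054053-171054193 in Fcgr3). Capitals mark the 2 differences, G22T and T152G, counted from 1 at the left end with the base of Fcgr2b given before that of Fcgr3.
Fcgr2b: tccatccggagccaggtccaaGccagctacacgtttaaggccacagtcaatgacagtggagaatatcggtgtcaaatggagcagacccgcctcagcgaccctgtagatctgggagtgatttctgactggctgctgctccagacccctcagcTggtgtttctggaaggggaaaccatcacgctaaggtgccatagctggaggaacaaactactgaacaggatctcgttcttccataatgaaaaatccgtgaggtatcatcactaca
Fcgr3: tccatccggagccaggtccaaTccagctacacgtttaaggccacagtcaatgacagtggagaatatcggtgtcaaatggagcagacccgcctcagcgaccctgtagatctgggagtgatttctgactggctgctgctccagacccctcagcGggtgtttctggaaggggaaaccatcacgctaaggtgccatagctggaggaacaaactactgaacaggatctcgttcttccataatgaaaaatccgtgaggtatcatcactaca
The sequences are those of the reference genome, and the CD1 mice may carry others. How reads that fit both genes were counted is not given in the sources used here, so the 2 genes are described singly and, where it matters, as a sum.

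On a per-length scale, the gamma chain was the most abundant of the 9 transcripts and Fcgr3 the most abundant receptor. Levels here are FPKM, that is CPM (counts normalised for the depth of each library) divided by the deposited gene length in kilobases. Fcer1g, which encodes the common gamma chain, stood at 356 FPKM with Vehicle and 385 with EGCG in replicate 1, and at 499 and 529 FPKM in replicate 2. Fcgr3, an activating IgG receptor of low affinity, followed at 275, 289, 311 and 314 FPKM in the same order of libraries. Neither range overlapped that of the next gene, and these ranks were the same in all 4 libraries. They depend on the deposited lengths, which can exceed that of a transcript (5790 bases for Fcgr2b against 3544 for Fcgr2b-201). By CPM, Fcgr2b was above Fcgr3 in replicate 1 (711 against 476.5 with Vehicle, 640.0 against 502 with EGCG). It was below Fcgr3 in replicate 2 (519.7 against 539 and 472 against 545). By CPM, Fcer1g was below both in every library.

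Fcgr2b, the inhibitory receptor, came next at 123, 110.5, 89.8 and 81.6 FPKM. Lyn, a Src family kinase that phosphorylates both ITAM and ITIM, stood at 56.4, 55.6, 102 and 101 FPKM. The ranges of the 2 genes overlapped, and their order turned between replicates: Fcgr2b was above Lyn in both libraries of replicate 1 and below it in both libraries of replicate 2. The remaining genes were close together, with ranges of 45.7 to 74.6 FPKM for Fcgr1, 47.6 to 53.5 for Fcgr4, 35.8 to 59.05 for Syk, 35.7 to 50.2 for Plcg2 and 28.8 to 42.9 for Inpp5d. Each of these ranges overlapped the next, so no order among neighbours can be read from the means, although Inpp5d had the lowest FPKM of the 9 in every library. By CPM, which is not divided by length, Fcgr4 was the lowest in every library.

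**Figure D1:**
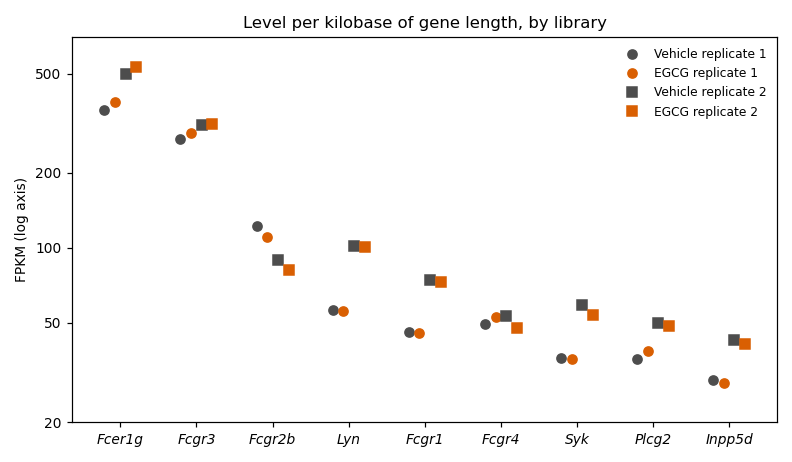
Level of each gene per kilobase (FPKM, log axis) in each library, 1 point per library, with circles for replicate 1, squares for replicate 2, grey for Vehicle and orange for EGCG. Fcer1g (356 to 529) and Fcgr3 (275 to 314) lie above the other 7 genes, and the points of most genes part by replicate rather than by treatment.

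The question put to these libraries was whether EGCG altered transcription in microglia. None of the 9 genes passed an unadjusted p of 0.05 between EGCG and Vehicle, and all had a Benjamini-Hochberg adjusted p of 1 in the quasi-likelihood test of edgeR, with treatment as the only term. Among all 13811 genes tested, 0.116% (16 genes) passed the unadjusted threshold and 0 passed an adjusted p of 0.1, whereas the DESeq2 test gave 24 and 1. At such shares a set of 9 genes would mostly hold no call, so the absence of calls says little about the members. The fitted log2 differences of the 9 genes lay between -0.15 for Fcgr2b and 0.10 for Fcer1g, with a median of -0.03, against 0.01 over all genes tested. No member had its EGCG libraries clear of its Vehicle libraries, which 11.9% of all genes did. A permutation of 2 libraries against 2 reaches a two-sided p of 0.333 at best, and the calls therefore rest on the model.

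Among the receptors, Fcgr2b was lower with EGCG in each replicate. It had 711 CPM in Vehicle replicate 1 against 640.0 in EGCG replicate 1, and 519.7 in Vehicle replicate 2 against 472 in EGCG replicate 2. The log2 differences within replicates were -0.15 and -0.14, and both lay outside counting error (95% intervals of -0.18 to -0.12 and of -0.16 to -0.11). The Vehicle libraries nevertheless differed by more than this from each other, and the fitted difference was -0.15 with a standard error of 0.27. With the replicate number as a further term, which takes out that difference, Fcgr2b passed the unadjusted threshold, the only member to do so (adjusted p = 0.995 in the quasi-likelihood test of edgeR, Benjamini-Hochberg adjustment), as did 3.21% of all genes (1.09% lower and 2.12% higher with EGCG). The summed counts of Fcgr2b and Fcgr3 did not pass in the same fit (log2 difference -0.06). Over all genes tested, 6.33% were lower in both replicates by at least the smaller of these differences. Among the 3334 genes with a mean CPM no lower than that of the least abundant member, the share was 0.45% (15 genes). Fcgr2b is itself among them, since its own difference set the cutoff, so these shares describe its place and are no test of it.

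The activating receptors showed no common direction. Fcgr1, the IgG receptor of high affinity, stood at 119, 118, 193 and 189 CPM in Vehicle and EGCG of replicate 1 and then of replicate 2. Its within-replicate log2 differences of -0.01 and -0.03 were inside counting error. Fcgr3 was at 476.5, 502, 539 and 545 CPM, with differences of 0.08 and 0.01, of which only that of replicate 1 lay outside counting error. Fcgr4, an activating receptor for some IgG subclasses, was at 62.4, 66.3, 67.1 and 59.8 CPM. It was 6.2% higher with EGCG in replicate 1 and 10.9% lower in replicate 2, and its 4 libraries lay closer together than those of any other member. The gamma chain gene Fcer1g was higher with EGCG in both replicates, at 311 and 336 CPM in replicate 1 and 436 and 463 in replicate 2. These differences of 8.1% and 6.16% were outside counting error but smaller than the spread between replicates (fitted log2 difference 0.10, standard error 0.28).

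Among the kinases and enzymes behind the receptors, Lyn was the most level with EGCG. It stood at 229.8 and 226 CPM in Vehicle and EGCG of replicate 1 and at 414 and 413 in replicate 2, and its log2 differences of -0.02 and -0.01 were inside counting error. Syk, the kinase that docks on the phosphorylated ITAM, was at 339 and 335 CPM in replicate 1 and at 553 and 504 in replicate 2. Its difference was inside counting error in replicate 1 and was -0.13, or -8.86%, in replicate 2. Plcg2, the phospholipase C downstream of Syk, was 8.44% higher with EGCG in replicate 1 (153.5 against 166.5 CPM) and 3.47% lower in replicate 2 (216 against 208 CPM). Inpp5d, which encodes SHIP1, stood at 225 and 219 CPM in replicate 1 and at 326 and 314 in replicate 2, which is lower by 2.6% and 3.79%.

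In all, 5 of the 9 genes (Fcgr1, Fcgr2b, Syk, Inpp5d and Lyn) were lower with EGCG in both replicates, as were 20.6% of all genes tested. Fcgr3 and Fcer1g were higher in both, as were 29.9% of all genes, and Fcgr4 and Plcg2 went in opposite directions. The direction of Plcg2 also turned when libraries were scaled by their totals alone (log2 difference -0.01 against 0.02). The width of the intervals varied by gene. The 95% interval of the fitted log2 difference reached from -0.41 to 0.33 for Fcgr4 and from -0.43 to 0.51 for Fcgr3, but from -1.27 to 1.25 for Lyn and from -1.05 to 0.99 for Fcgr1. These intervals take in the difference between replicates, and with the replicate number as a further term they narrowed to between -0.14 and 0.11 for Lyn and between -0.15 and 0.10 for Fcgr1. When any of the 4 libraries was left out, none of the 9 genes passed the unadjusted threshold, although each of them changed sign in at least 1 of these fits, in which the groups no longer held the same replicates.

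**Figure D2:**
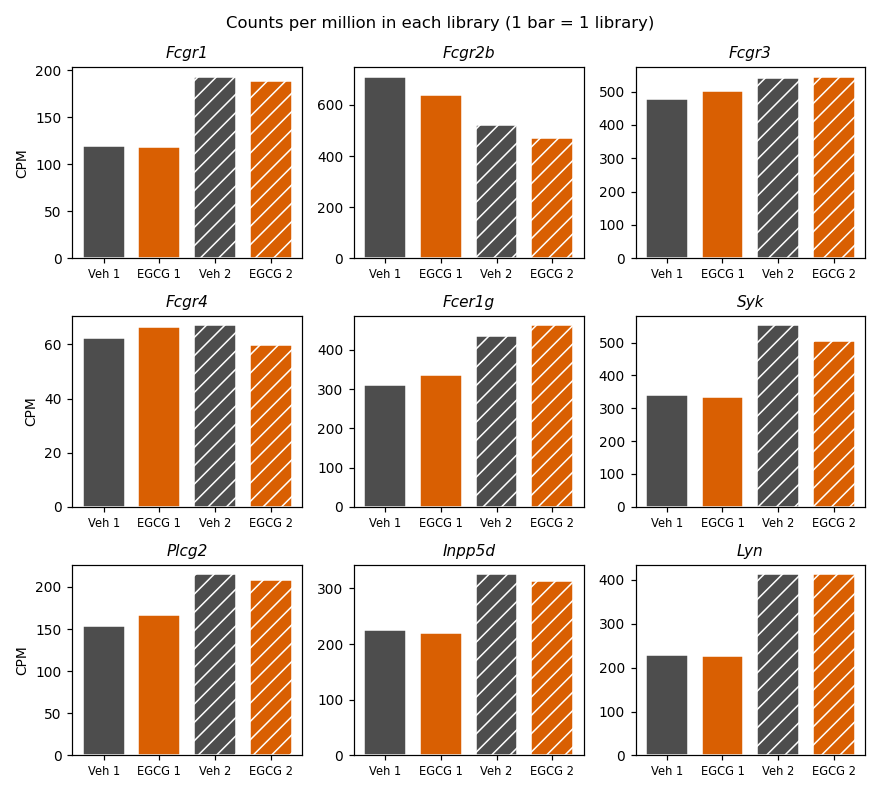
CPM of each gene in each library, 1 bar per library from 0, with grey for Vehicle, orange for EGCG and hatching for replicate 2. The EGCG bar is close to the Vehicle bar of the same replicate in all 9 genes, whereas replicate 2 stands above replicate 1 for Fcgr1, Fcgr3, Fcer1g, Syk, Plcg2, Inpp5d and Lyn and below it for Fcgr2b.

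The larger part of the variation lay between the replicates. The difference of replicate 2 from replicate 1 was tested in a fit that also held the treatment, and this compares the cultures of a replicate with those of the other, each measured in 2 libraries, not kinds of culture. At an adjusted p of 0.1 (Benjamini-Hochberg, quasi-likelihood test of edgeR), 8 of the 9 genes differed, 7 higher and 1 lower in replicate 2. Of all genes tested, 53.5% differed (27.7% higher and 25.7% lower), and of the 3334 genes at or above the level of the least abundant member 70.3% did, and the 8 of 9 stands against these shares. The libraries of the replicates did not overlap for the same number of members, 8, and for 76.5% of all genes.

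Lyn showed the widest gap, at 1.80 times in the Vehicle libraries and 1.82 times in the EGCG libraries (fitted log2 difference 0.86, standard error 0.05, Benjamini-Hochberg adjusted p = 0.000273, quasi-likelihood test of edgeR). Fcgr1 was higher by 1.62 and 1.60 times and Syk by 1.63 and 1.502 times. Inpp5d followed at 1.45 and 1.43 times, Fcer1g at 1.40 and 1.38 times and Plcg2 at 1.40 and 1.25 times. Fcgr3 was higher by only 1.13 and 1.08 times, and its call was lost with the DESeq2 test (adjusted p = 0.131) and with upper-quartile scaling in the quasi-likelihood test of edgeR (adjusted p = 0.18), both after Benjamini-Hochberg adjustment.

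Fcgr2b was the only member called lower in replicate 2, at 0.731 times the level of replicate 1 in the Vehicle libraries and 0.738 times in the EGCG libraries. The fitted log2 difference was -0.45 with a standard error of 0.05 (Benjamini-Hochberg adjusted p = 0.00255, quasi-likelihood test of edgeR). Fcgr4 did not pass (log2 difference -0.02, 95% interval -0.23 to 0.18), and its sign depended on the scaling of the libraries. When the counts of Fcgr2b and Fcgr3 were summed, to set aside how reads of the shared exons had been divided, the sum was lower in replicate 2 by a log2 difference of -0.17 (Benjamini-Hochberg adjusted p = 0.0841, quasi-likelihood test of edgeR).

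**Figure D3:**
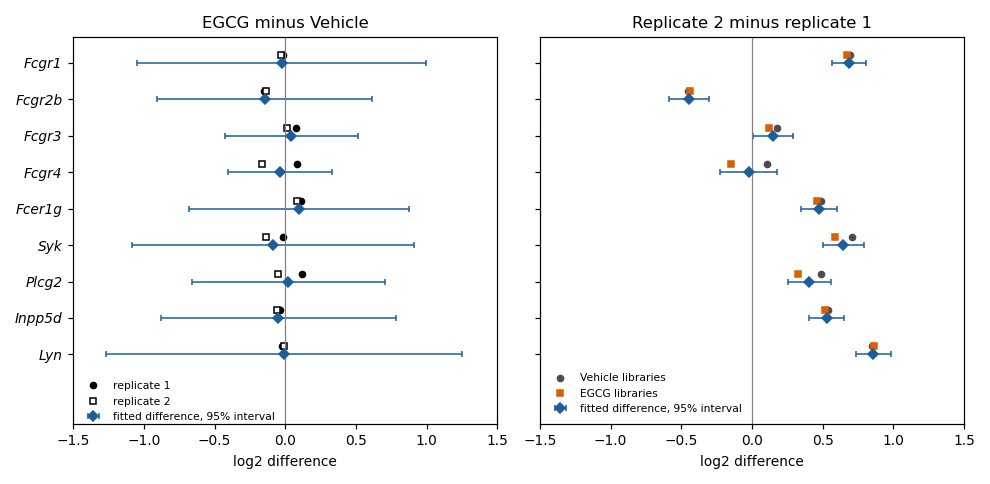
Log2 differences of the 9 genes between EGCG and Vehicle (left) and between replicate 2 and replicate 1 (right), with diamonds and bars for the fitted difference and its 95% interval and small symbols for the differences of single library pairs. On the left every interval holds 0, and on the right 7 intervals lie above 0 and that of Fcgr2b (-0.58 to -0.31) below it.

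The balance of activating and inhibitory receptors also differed between replicates. The summed FPKM of the activating receptors Fcgr1, Fcgr3 and Fcgr4 was 3.02 times that of Fcgr2b with Vehicle and 3.51 times with EGCG in replicate 1, and 4.89 and 5.32 times in replicate 2. The ratio was thus 1.16 times as high with EGCG in replicate 1 and 1.09 times in replicate 2, and between replicates it differed by 1.62 times in Vehicle and 1.52 times in EGCG. Over both replicates the EGCG libraries overlapped the Vehicle libraries, and the ratio was not tested. These ratios rest on the deposited gene lengths and on how reads of the exons shared by Fcgr2b and Fcgr3 were divided. The FPKM of the gamma chain stood at 0.961, 0.992, 1.14 and 1.22 times that of the activating receptors together. Inpp5d over Syk, a lipid phosphatase of the inhibitory branch against a kinase of the activating branch, ranged from 0.727 to 0.818 over the libraries.

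Markers of other cells varied among the libraries as well, and not only between replicates. The 12 microglial markers were all detected and summed to 7938 and 8812 CPM in Vehicle and EGCG of replicate 1 and to 11480 and 11290 CPM in replicate 2. All 8 fibroblast markers were detected, and their sum was 2835 and 1717 CPM in replicate 1 against 704 and 783 CPM in replicate 2, mostly from Fn1. The collagen gene Col1a1 had 3962 counts in Vehicle and 4 in EGCG of replicate 1, and 1344 and 2040 in replicate 2. Col1a2, Col3a1, Dcn and Lum were also near 0 in that single EGCG library, with 3, 6, 2 and 0 counts. They had 4469, 4417, 788 and 70 counts in Vehicle of replicate 1. In the same pair Pdgfrb and Fn1 fell less (142 to 30 and 79066 to 54819 counts), and Pdgfra did not fall (122 to 141). The lists for astrocytes, the oligodendrocyte lineage, neurons, endothelium and natural killer and T cells each summed to at most 182.5 CPM. Whether these cells had a part in the differences of the 9 genes was not tested, and in bulk RNA fewer cells of a type cannot be told apart from less RNA per cell. B cells, which carry Fcgr2b, and mast cells, which carry Fcer1g, had defining markers at 0 in every library (Ms4a1 for the former, and Ms4a2, Cpa3 and Mcpt4 for the latter). Other markers of these lists had a few counts, at most 28 for the B cell marker Cd79b, 19 for the mast cell marker Hdc and 9 for Kit. The neutrophil markers Ly6g, S100a9 and Elane were at 0 too, although S100a8 reached 12.8 CPM.

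Other genes of the pathway were taken from a list of 94 ordered by role, of which 86 were tested. None passed an unadjusted p of 0.05 between EGCG and Vehicle, against 0.116% of all genes, and their median log2 difference was 0.0045. At that share a list of 86 genes would mostly hold no call, so the absence of calls is no result about the pathway. With the replicate number as a further term 4 passed, all higher with EGCG, against 3.21% of all genes. Between replicates 69 of the 86 were called, 43 higher and 26 lower in replicate 2. Of all genes, 53.5% were called, 27.7% higher and 25.7% lower. Of the 3334 genes at or above the level of the least abundant member, 70.3% were called. By role, all 15 genes of the exchange factors and actin branch were called, 14 of them higher in replicate 2, with a median log2 difference of 0.74 against 0.01 over all genes. In the list headed other ITAM adaptors and receptors, 5 of 7 tested genes were lower and 0 higher, with a median of -1.004. The 5 were receptors (Trem2, Trem1, Cd300lb, Clec5a and Sirpb1a), and the signalling adaptors Tyrobp and Hcst were not called. Of the 10 Src family kinases and regulators tested 4 were higher and 3 lower, of 11 ITIM receptors 5 and 2, of 8 phosphatases 4 and 2, of 15 adaptors 6 and 7, and of 17 genes of the lipid kinases and PLC branch 8 and 6. Of the other Fc receptors 3 were tested and 2 were higher, while Fcer1a, Ms4a2, Fcer2a, Fcmr and Fcamr had no count in any library. Blk and Siglech had too few counts, and Clec7a was not tested because the files do not class it as protein-coding.

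Several kinases beside Lyn and other shared components were measured in all libraries. Fgr, a Src family kinase of myeloid cells, stood at 31.8 and 31.6 CPM in Vehicle and EGCG of replicate 1 and at 38.9 and 37.2 CPM in replicate 2. The Tec family kinase Btk was at 78.05, 85.3, 89.04 and 90.3 CPM in the same order. Tyrobp, the ITAM adaptor of Trem2, was nearly level at 1023, 1147, 1091 and 1093 CPM (replicate 2 minus replicate 1 on the log2 scale 0.01). Trem2 itself was lower in replicate 2, at 430 and 467 CPM against 688 and 776 in replicate 1 (log2 difference -0.71). Ptpn6, the tyrosine phosphatase SHP-1 that binds ITIMs, was higher, at 462 and 457.5 CPM against 248 and 270 (log2 difference 0.83). Vav1, an exchange factor for Rac, was higher as well, at 332 and 303 CPM against 199 and 218 (log2 difference 0.61).

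The widest EGCG differences of the pathway, among genes with at least 100 counts in every library, were those of Hcst, Lat and Lair1 upwards and of Cd300lf, Fcrls and Sh2d1b1 downwards, and none passed the test with treatment as the only term. With the replicate number as a further term, Lat and Lair1 passed the unadjusted threshold (adjusted p = 0.995 for each in the quasi-likelihood test of edgeR, Benjamini-Hochberg adjustment). Trem2 and Lat2 were the other pathway genes to pass it, 4 of 86 in all, and 3.21% of all genes tested did so too. Hcst, a small signalling adaptor with 125 to 248 counts per library, was at 3.81 and 5.18 CPM in Vehicle and EGCG of replicate 1. It was at 3.82 and 4.50 CPM in replicate 2 (log2 difference 0.34, 95% interval -0.40 to 1.09). Its groups did not overlap, as was so for 11.9% of all genes, and it was named for the width of its difference. Lat, an adaptor scaffold, stood at 37.6 and 44.6 CPM in replicate 1 and 12.2 and 15.8 in replicate 2, and Lair1, an ITIM receptor for collagen, at 118 and 142 and then 100.5 and 115 CPM. Cd300lf, an ITIM receptor for lipids, was at 67.3 and 50.4 CPM in replicate 1 but at 56.6 and 55.8 in replicate 2. Fcrls, an Fc receptor-like gene of microglia, and Sh2d1b1, an SH2 adaptor, were lower with EGCG in 1 replicate and higher in the other.

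Between replicates and under the same minimum of 100 counts, Fcrls was the pathway gene with the largest rise, from 94.4 and 99.7 CPM to 732 and 629 CPM (log2 difference 2.81), followed by Siglece, an ITIM receptor for sialic acid (1.71), and Fyb, an adaptor linking receptors to actin (1.69). Among genes with at least 100 counts in every library, the largest falls were those of Clec5a, a Tyrobp-coupled lectin (-1.69), Lat (-1.56) and Malt1, a paracaspase of the Card9 branch (-1.31). Below that minimum, Sirpb1a (-3.08) and Trem1 (-2.58) were lower still, both named after their values were seen. Among the 9 members the widest difference was the 0.86 of Lyn. Among all other tested genes, Stat5b, Usp8 and Aimp1 were nearest to the mean profile of the 9 genes over the 4 libraries, at root mean square log2 distances of 0.005, 0.008 and 0.008. In all, 2100 genes lay within 0.1 of it, so this likeness is common in data of 4 libraries. Of the members, Plcg2 was nearest to that mean (0.04) and Fcgr2b farthest from it (0.41).

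**Figure D4:**
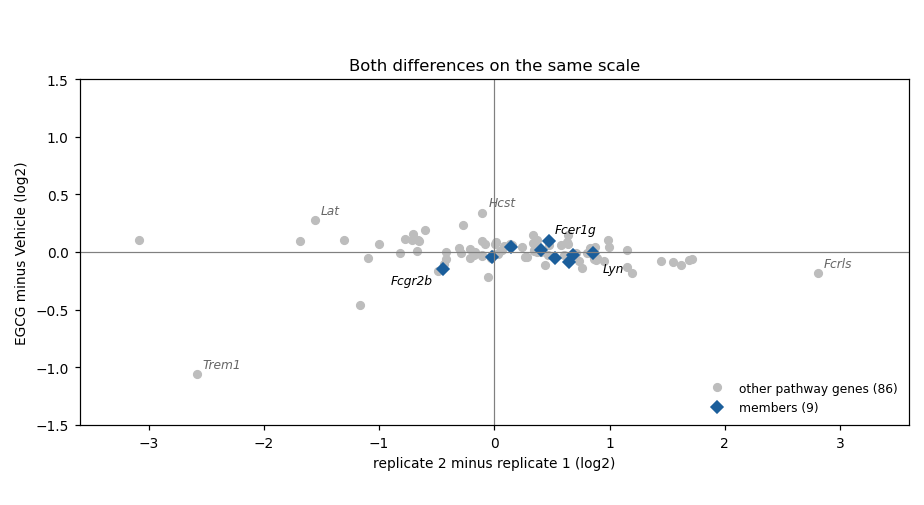
Difference between replicates (horizontal, log2) against the difference between EGCG and Vehicle (vertical, log2), on the same scale, for the 9 members (diamonds) and the 86 other pathway genes tested (grey). On the horizontal axis points reach 2.81 (Fcrls) and -3.08 (Sirpb1a), and members lie between -0.45 (Fcgr2b) and 0.86 (Lyn). On the vertical axis members stay between -0.15 and 0.10 and the other genes between -1.06 (Trem1) and 0.34 (Hcst). Sirpb1a and Trem1 had under 100 counts in some libraries and were picked out after their values were seen.

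Promoters of some of the receptors are shown as a description. The receptors printed were picked by their differences between replicates, and whether promoter sequence had a part in those differences was not tested. RefSeq windows (GRCm38.p6) from 250 bases before to 50 bases after the start of transcription were given for 8 of the 9 genes, 10 windows in all. No window was given for Lyn. The letters GAGGAA, the core of the PU box bound by the myeloid factor PU.1, were searched on both strands and occurred in 6 of the 10 windows and in 28.3% of all 32851 windows of that length. The 2 windows of Fcgr3 overlap and hold the same match, so that the 6 windows count it more than once. Below are the 150 bases before the start site, 5′ to 3′, for a gene higher in replicate 2, a gene not called and the gene that was lower, with the match in capitals (TTCCTC on the other strand).
Fcgr1, chr3:96293970-96294119, minus strand: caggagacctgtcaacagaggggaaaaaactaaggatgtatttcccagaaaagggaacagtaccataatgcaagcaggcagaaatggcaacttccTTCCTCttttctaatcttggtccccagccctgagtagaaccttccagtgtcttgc
Fcgr4, chr1:171018776-171018925, plus strand: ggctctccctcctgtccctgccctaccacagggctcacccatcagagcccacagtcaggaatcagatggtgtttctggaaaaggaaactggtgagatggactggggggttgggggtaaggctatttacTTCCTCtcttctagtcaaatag
Fcgr2b, chr1:170976072-170976221, minus strand: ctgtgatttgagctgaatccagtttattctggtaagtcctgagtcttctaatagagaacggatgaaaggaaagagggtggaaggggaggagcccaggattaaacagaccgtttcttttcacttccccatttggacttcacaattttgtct
The match began at position -55 in Fcgr1 and -22 in Fcgr4, counted from the start site, and the letters did not occur in the window of Fcgr2b. The windows are not placed alike, since RefSeq start sites can differ from the ends of the deposited genes. The stretch printed for Fcgr2b lies within its deposited gene (170958617 to 170976547), whereas those of Fcgr1 and Fcgr4 lie at the ends of theirs. Sequence before the deposited start of Fcgr2b was not searched. They were found in windows of Fcgr1, Fcgr3, Fcgr4, Syk (1 of its 2 windows) and Inpp5d, of which all but Fcgr4 were higher in replicate 2. They were not found in those of Fcgr2b, Fcer1g and Plcg2, of which Fcer1g and Plcg2 were higher in replicate 2 too.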

How the data were processed

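RNA was measured in 4 libraries of poly-A RNA, prepared to keep strand, from 2 Vehicle and 2 EGCG cultures. The authors filtered the paired-end reads, aligned them with HISAT2 to GRCm38.p6 and deposited raw counts per gene, in 1 table per replicate. The counting program and its use of strand are not given in the sources used here. Replicate numbers of the table columns came from the study's supplementary metadata. Tables were joined on the Ensembl identifier (54532 genes), leaving out 697 and 329 loci assembled separately in each table, which held 0.11% to 0.156% of counts. Of the protein-coding genes, the 13811 that reached 10 counts over the libraries were tested in R 4.3.3 with edgeR 4.0.16 (TMM, quasi-likelihood F test, two-sided, Benjamini-Hochberg adjustment over all of them) and, as an alternative, DESeq2 1.42.0. Fits were also run on simulated counts with log2 changes of 1.5 planted in 200 of 13811 genes. Those changes are far wider than the EGCG differences of the members, so the simulation does not show whether such small differences would be found. CPM are scaled to TMM library sizes and FPKM divide these by the deposited gene length. A count of 3, between 0.0546 and 0.0889 CPM, was taken as the floor. Counting intervals (95%) cover counting error only. Antisense genes with counts overlap Lyn (Gm26857, 92 to 116 counts) and Fcgr2b (Gm38204, 1 to 17 counts). Genes named are all members, 7 pathway genes chosen for role (1 of them is not reported here), those under the unadjusted threshold of 0.05, the 3 widest in each direction with at least 100 counts in every library, and the 3 nearest to the members' mean profile. Members and lists were chosen with earlier results of these data known.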

Additional observations from a re-analysis of the deposited data

How the results depend on the processing

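The labels give the groups the same replicate numbers without saying what a number stands for, so the replicate block is an alternative to the fit with treatment alone. Libraries of the same number deviated together (Pearson r = 0.641 across 13811 genes between the Vehicle and EGCG replicate differences; genes are not independent replicates). With the replicate block, edgeR called 444 genes at an unadjusted p of 0.05 (1 at an adjusted p of 0.1) and DESeq2 153 (7), against 16 (0) in edgeR and 24 (1) in DESeq2 without it. Among members both called 1, Fcgr2b (log2 difference -0.14 in edgeR and -0.15 in DESeq2; Benjamini-Hochberg adjusted p 0.995 and 1), and among pathway genes 4 (Trem2, Lair1, Lat and Lat2, all higher) and 3. With Fcgr2b and Fcgr3 summed, an alternative whose blocked form was added after the data were seen, the difference was -0.0572, and -0.0573 with the replicate block, and neither passed the unadjusted threshold.

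Without the block, calls among all genes moved from 16 to 3 with 10 counts required in every library, 35 with all biotypes, 78 with edgeR's likelihood ratio test and 38 with its newer dispersion method, and to between 8 (without EGCG replicate 1) and 134 (without EGCG replicate 2) when a library was left out, with 59 without Vehicle replicate 2. DESeq2 gave 1 gene at an adjusted p of 0.1. None of these added a member. Leaving out a library makes the replicate numbers unequal between groups, and EGCG differences then ranged from -0.43 to 0.35 for Fcgr1, -0.38 to 0.10 for Fcgr2b, -0.0475 to 0.12 for Fcgr3, -0.12 to 0.0028 for Fcgr4, -0.18 to 0.35 for Fcer1g, -0.44 to 0.30 for Syk, -0.20 to 0.27 for Plcg2, -0.36 to 0.23 for Inpp5d and -0.54 to 0.46 for Lyn. Plcg2 also turned with total counts only (-0.0099). Between replicates, Fcgr4 turned with total counts only (0.0561), with all biotypes (0.0162) and when a library was left out (-0.15 to 0.10), and the sum of Fcgr2b and Fcgr3 (-0.17) had the opposite sign to Fcgr3. Replicate differences with a library left out have no residual degrees of freedom and are values only.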
